A study of Mus musculus with 31 samples.

Results

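The genes described here encode the proteins of the cytosolic ribosome, measured in the hippocampus of mice of 5 ages, the youngest 10 days and the oldest 20 months old. They were chosen by symbol: probe sets that the array annotation lists for a single gene and whose symbol begins with Rpl or Rps and a digit, or is Rplp0, Rplp1 or Rplp2, without the Rps6k kinases and without pseudogenes. The rule found 49 genes on 104 probe sets, of 18193 genes on the array, and 46 of them, on 92 probe sets, passed the filter on low signals, as did 12844 genes in all. The 3 genes below the filter were Rpl39l, Rpl3l and Rps16, with median deposited signals of 27.3, 8.22 and 1.3. Of the 46 genes measured, 24 encode proteins of the large subunit and 21 proteins of the small subunit. Rps19bp1 matches the rule but encodes a protein that binds Rps19 and is not itself part of the ribosome. A further 110 probe sets were listed for several genes that include a ribosomal protein, and they were left out by the rule. For this reason Rplp1 and Rpl5, Rpl3, Rpl10, Rpl36a and Rps27a, and the paralogs Rpl10l and Rpl36al, were not analysed here.

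The arrays came from the hippocampi of male mice of the strain C57BL/6, either wild type (wt) or carrying a Glud1 transgene (Tg) that raises the mitochondrial enzyme glutamate dehydrogenase in neurons of the central nervous system. Both genotypes were sampled at 10 days, 4.5 months, 9 months, 14.5 months and 20 months, with 3 mice in every group except wt at 10 days, which had 4, and with 1 array per mouse. The study's question was how gene expression changes with age and whether neuronal excess of Glud1 alters that course. Per the study, the array's Glud1 probe sets read a stretch of the transcript that is missing from the transgene, and the genotype labels therefore cannot be checked with them.

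The cytosolic ribosome translates messenger RNA into protein. Its small subunit reads the message, and its large subunit joins the amino acids and passes the growing chain through an exit tunnel. A stalk of P proteins on the large subunit recruits the elongation factors. Messages for ribosomal proteins are among the most abundant in most cells, and many of them begin with a run of pyrimidines through which their translation is linked to growth signals, while growing neurons in the postnatal brain make many ribosomes.

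Levels are given as log2 of the deposited signal after quantile normalization across the arrays, so that a difference of 1 is a factor of 2. A gene is said to have risen or fallen where the limma test, adjusted over all probe sets past the filter, gave an adjusted p under 0.05. Each gene is read on its probe set with the highest mean. Differences are given as later minus earlier age, or Tg minus wt, with the standard error (SE). Probe sets differ in how brightly they bind, so levels are compared between samples and never between genes.

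Before the levels, the DNA around the transcription starts is shown for 6 genes, namely 3 of the 5 with the largest fall from 10 days to 4.5 months (Rps9, Rplp0 and Rplp2) and 3 whose brightest probe set did not pass the test after quantile normalization (Rpl19, Rps3a1 and Rpl37a, chosen after their values were seen, and below 10 days under the other scalings, as given further on). The sequences come from RefSeq on build GRCm38.p6 and run 5′ to 3′ on the gene's strand, each 75 bases long and starting 50 bases before the annotated start. Capitals mark an unbroken run of at least 8 C or T bases between 20 bases before and 25 bases after the start. The Rpl19 line shows the second of its 2 annotated starts, since the first had no such run.

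Rps9, chr7:3703991-3704065, + strand: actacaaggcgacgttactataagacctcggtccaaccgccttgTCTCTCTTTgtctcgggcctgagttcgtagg
Rplp0, chr5:115559417-115559491, + strand: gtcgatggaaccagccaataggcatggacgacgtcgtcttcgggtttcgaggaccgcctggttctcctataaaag
Rplp2, chr7:141447601-141447675, + strand: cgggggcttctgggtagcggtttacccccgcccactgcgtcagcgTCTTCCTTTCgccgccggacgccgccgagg
Rpl19, chr11:98026874-98026948, + strand: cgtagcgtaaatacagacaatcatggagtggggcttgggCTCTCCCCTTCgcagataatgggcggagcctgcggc
Rps3a1, chr3:86142644-86142718, - strand: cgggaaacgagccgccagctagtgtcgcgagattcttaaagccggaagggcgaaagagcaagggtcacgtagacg
Rpl37a, chr1:72711210-72711284, + strand: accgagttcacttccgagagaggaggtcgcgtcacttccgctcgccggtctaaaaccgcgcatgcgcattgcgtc

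A pyrimidine run stood at the start of Rps9, Rplp2 and Rpl19, and none was found in these windows for Rplp0, Rps3a1 and Rpl37a. Promoters were at hand for 40 of the 46 genes. In 22 of the 40 (55.0%) at least 1 annotated start had a run of 8 or more C or T bases, compared with 20.1% of 27025 genes with a promoter. On the opposite strand, which holds such a run of G or A on the gene's own strand, the shares were 5.0% and 22.3%. The 6 letters CGGAAG, the core that ETS family factors bind, were searched on both strands of the 300 bases from 250 before to 50 after the start, and were found in 28 of the 40 (70.0%) against 18.8% of all genes. The run was present in 16 of 28 genes that fell from 10 days to 4.5 months and in 6 of the other 12, and CGGAAG in 16 of the 28 and in 12 of the 12. The median log2 difference was -0.30 for the 22 genes with a run and -0.28 for the 18 without.

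From 10 days to 4.5 months, the messages for most ribosomal proteins fell. Of the 46 genes, 33 fell and 4 rose, where 35.5% of all genes tested fell and 31.2% rose. The median log2 difference over the 46 was -0.33, and over all genes it was -0.04. Both subunits took part, with 18 of 24 large subunit genes and 14 of 21 small subunit genes falling (medians -0.34 and -0.27). On the deposited signals without quantile normalization 37 fell, with a median of -0.44 against 0.05 for all genes. Of all 12844 genes 4074 fell and 4638 rose on that scale. With median centring 43 fell, with a median of -0.79 against -0.30, where 6627 of the 12844 fell and 2289 rose. On the level of single arrays, 26 of the 46 had every 4.5 month array below every 10 day array, compared with 23.1% of all genes, and 0 had every array above, compared with 20.1%.

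The median over the 46 genes on each array gives the same picture. It ran from 13.48 through a median of 13.50 to 13.60 in the 7 mice of 10 days, and from 13.04 through 13.09 to 13.12 in the 6 mice of 4.5 months. It then stood at 13.23, 13.32 and 13.41 (lowest, median and highest) at 9 months, at 13.07, 13.09 and 13.15 at 14.5 months and at 13.19, 13.29 and 13.37 at 20 months. All arrays of 10 days thus lay above all adult arrays, and among the adult ages the 4.5 and 14.5 month arrays lay below those of 9 and 20 months without overlap.

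**Figure D1:**
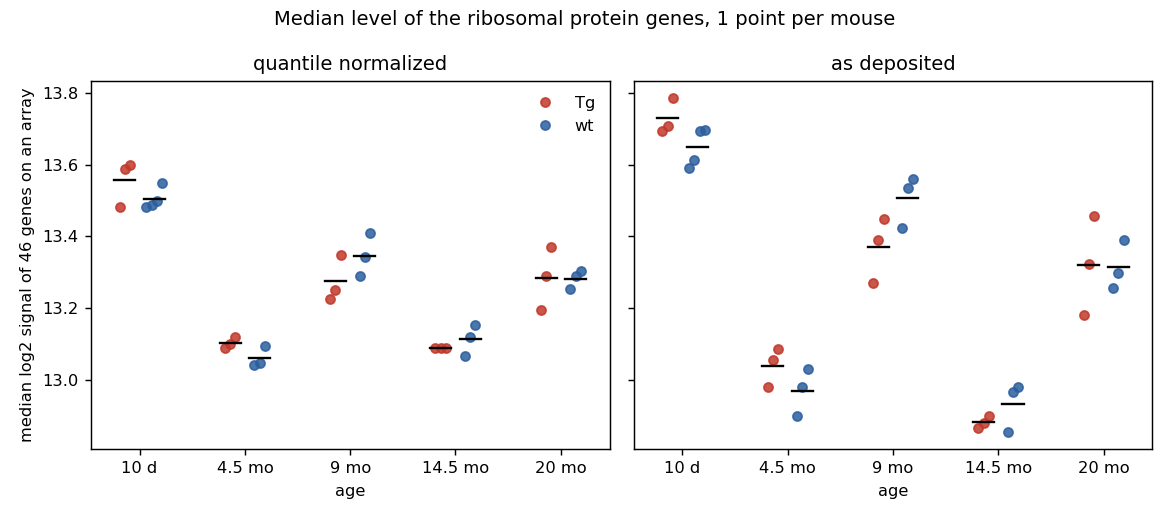
Median log2 level over the 46 ribosomal protein genes on each array (vertical axis) by age (horizontal axis), after quantile normalization (left) and as deposited (right). Each point is 1 mouse, red for Tg and blue for wt, and black bars mark group means. The 10 day arrays run from 13.48 to 13.60 on the left and from 13.59 to 13.79 on the right. In both panels they all lie above every adult array, and the adult ages alternate.

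The arrays of the 5 ages also differed in technical measures. The labels give no hybridisation dates, so age and array batch cannot be told apart. The log2 ratio of the Gapdh 3′ to 5′ control probe sets, which is read as a sign of RNA or target integrity, ran from -0.08 to 0.02 on the 4.5 month arrays and from -0.46 to -0.14 on all others, and the actin ratio ran from 0.71 to 0.96 at 9 months and from 0.32 to 0.55 elsewhere. The highest signal on an array was 22626 to 26606 at 14.5 months and 49134 to 57995 at 9 months. Their part in the steps between ages was not tested. Among the genes as bright as most ribosomal proteins (mean above 12 on the log2 scale), 27 of 34 ribosomal protein genes fell from 10 days to 4.5 months and 1 rose, whereas of 887 other genes 301 fell and 425 rose.

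The fall outlasted 4.5 months for many of the genes. Compared with 10 days, 26 of the 46 were lower and 6 higher at 9 months (all genes: 37.5% and 29.7%), 30 lower and 2 higher at 14.5 months (33% and 30.1%), and 24 lower and 3 higher at 20 months (33% and 29.9%). The medians were -0.11, -0.28 and -0.14. At each of the 4 adult ages 20 of the 46 genes were below 10 days, as were 20.5% of all genes, and 0 were above at each, against 17% of all genes. These 20 were 10 large subunit genes (Rpl6, Rpl7, Rpl7a, Rpl8, Rpl10a, Rpl14, Rpl22, Rpl35, Rplp0 and Rplp2), 9 small subunit genes (Rps2, Rps4l, Rps4x, Rps7, Rps9, Rps14, Rps18, Rps20 and Rps26) and Rps19bp1. The 4 comparisons share the 10 day arrays, so they are not independent of each other. The 3 genes above their 10 day level at 20 months after quantile normalization were Rpl37, Rps15 and Rps6. The deposited signals of Rps15 were not higher at 20 months. They ran from 13140 through 14070 to 15340 at 10 days and from 13180 through 13580 to 14670 at 20 months. Of the 33 genes that fell by 4.5 months, 24 were still below 10 days at 20 months and 9 did not pass the test.

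**Figure D2:**
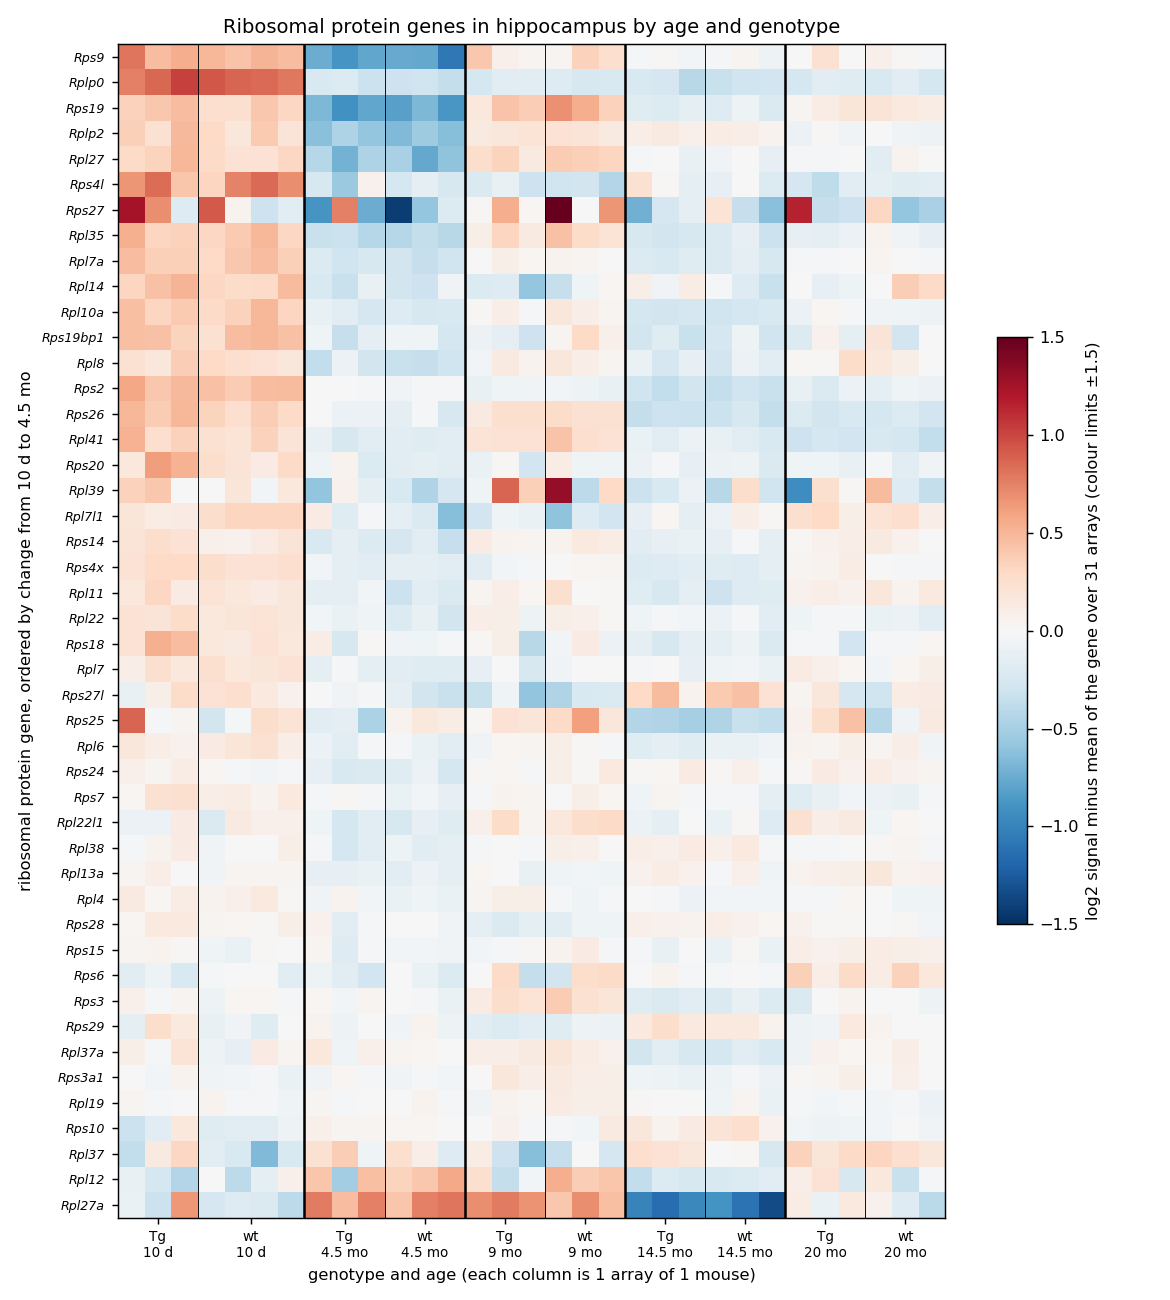
Log2 level of each of the 46 ribosomal protein genes (one line each, ordered by the difference between 10 days and 4.5 months) on each of the 31 arrays, grouped by age and genotype, as the difference from the gene's mean, with colours limited to -1.5 and 1.5. Most genes are highest in the 10 day columns, and a few at the other end of the order are not.

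The stalk proteins were among the genes that fell most. Rplp0 anchors the stalk to the large subunit. Its level ran from 14.03 through 14.13 to 14.30 at 10 days and from 12.92 through 12.97 to 13.06 at 4.5 months, then from 13.01 to 13.11 at 9 months, from 12.85 to 13.04 at 14.5 months and through a median of 13.07 up to 13.10 at 20 months. Every 10 day array stood above every adult array, and the 4 adult ages overlapped one another. The difference was -1.16 ± 0.04 (SE, 7 and 6 mice, limma adjusted p = 1.51e-20) from 10 days to 4.5 months and -1.08 ± 0.04 (adjusted p = 1.05e-19) from 10 days to 20 months, and between 4.5 and 20 months it was 0.08 ± 0.04 (adjusted p = 0.151). This last difference passed under the other scalings, at 0.17 ± 0.05 on the deposited signals and 0.25 ± 0.07 with median centring (limma adjusted p = 0.00336 and 0.00344).

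Rplp2, a P protein of the stalk itself, ran from 13.86 through 13.99 to 14.18 at 10 days, from 13.03 through 13.09 to 13.22 at 4.5 months and from 13.61 through 13.64 to 13.71 at 20 months. The 4.5 month arrays lay below those of both other ages, and the 20 month arrays lay between. From 10 days to 4.5 months the log2 level dropped by 0.89 ± 0.04 (adjusted p = 7.46e-18) and rose by 0.55 ± 0.04 from 4.5 to 20 months (adjusted p = 7.62e-12). Rpl12, at the base of the stalk, had a dim probe set that ran from 7.36 through 7.66 to 7.87 at 10 days and from 7.28 through 8.21 to 8.36 at 4.5 months. The ages overlapped, with a difference of 0.47 ± 0.14 (adjusted p = 0.00469) in the opposite direction to the P proteins.

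Rps9, a small subunit protein that helps to keep decoding accurate, had the largest fall of the 46. It ran from 13.06 through 13.13 to 13.44 at 10 days and from 11.56 through 11.86 to 11.89 at 4.5 months. Later it ran from 12.68 through 12.80 to 13.04 at 9 months, from 12.56 through 12.61 to 12.67 at 14.5 months and from 12.61 through 12.65 to 12.86 at 20 months. The 4.5 month arrays stood below all others without overlap, and all adult arrays lay below those of 10 days. The difference was -1.37 ± 0.06 (adjusted p = 2.2e-17) from 10 days to 4.5 months, 0.88 ± 0.07 (adjusted p = 6.86e-12) from 4.5 to 20 months, and -0.14 ± 0.07 (adjusted p = 0.0845) from 9 to 20 months.

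Among the other genes below 10 days at each adult age, 4 are given as examples, chosen after their values were seen. Rps4x and Rps4l encode closely related forms of a small subunit protein. Rps4x ran from 14.02 through 14.05 to 14.11 at 10 days, from 13.64 through 13.67 to 13.77 at 4.5 months and from 13.78 through 13.83 to 13.92 at 20 months, and Rps4l from 10.47 through 10.84 to 11.00, from 9.59 through 9.91 to 10.22 and from 9.77 through 9.97 to 10.01. For both, the 10 day arrays lay above those of the other ages, and Rps4x differed by -0.23 ± 0.03 (adjusted p = 4.77e-08) and Rps4l by -0.86 ± 0.09 (adjusted p = 1.47e-09) between 10 days and 20 months. Rpl7a, a large subunit protein, ran from 14.09 through 14.15 to 14.26 at 10 days, from 13.44 through 13.51 to 13.59 at 4.5 months and from 13.77 through 13.78 to 13.83 at 20 months. Its ages were separate, with the 20 month arrays between the others, and 20 months differed from 10 days by -0.39 ± 0.03 (adjusted p = 3.42e-12). Rps20, of the small subunit, ran from 13.67 through 13.81 to 14.18 at 10 days and from 13.34 through 13.40 to 13.59 at 4.5 months. After quantile normalization no adult step passed the test, the differences being 0.05 ± 0.06, -0.04 ± 0.06 and 0.02 ± 0.06 (adjusted p = 0.548, 0.62 and 0.815). On the deposited signals each adult step passed, at 0.27, -0.42 and 0.30 (limma adjusted p = 0.000304, 4.22e-07 and 0.000105), and with median centring no step did.

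Rps19 is needed for maturation of the small subunit's RNA and is mutated in Diamond-Blackfan anaemia. After quantile normalization it was back at its 10 day level at 9 months only. It ran from 13.02 through 13.12 to 13.25 at 10 days, from 11.88 through 11.98 to 12.10 at 4.5 months and from 12.94 through 13.17 to 13.46 at 9 months. The 9 month arrays overlapped those of 10 days, with a difference of 0.07 ± 0.05 (adjusted p = 0.26), and the 4.5 month arrays lay below both. The fall to 4.5 months was -1.14 ± 0.05 (adjusted p = 1.26e-17), and at 20 months, with levels from 12.81 through 12.91 to 12.98, the gene was 0.92 ± 0.05 above 4.5 months (adjusted p = 3.47e-14) and differed from 10 days by -0.22 ± 0.05 (adjusted p = 0.00056). At 14.5 months it differed from 10 days by -0.52 ± 0.05 (adjusted p = 6.85e-10). Rpl27, of the large subunit, took a like course, from 13.13 through 13.21 to 13.41 at 10 days and 12.15 through 12.37 to 12.49 at 4.5 months to 13.06 through 13.25 to 13.30 at 9 months. Its 4.5 month arrays lay below both other ages, which overlapped. It fell by 0.89 ± 0.05 to 4.5 months (adjusted p = 1.95e-15) and rose by 0.55 ± 0.05 from there to 20 months (adjusted p = 8.56e-10). It was below 10 days by a log2 difference of -0.37 ± 0.05 at 14.5 months (adjusted p = 2.92e-07) and -0.34 ± 0.05 at 20 months (adjusted p = 1.05e-06). With median centring the rise from 4.5 to 9 months was smaller than the fall before it for both genes. Under that scaling Rps19 fell by 1.64 ± 0.08 and rose by 1.25 ± 0.08, and Rpl27 fell by 1.43 ± 0.08 and rose by 0.94 ± 0.09.

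**Figure D3:**
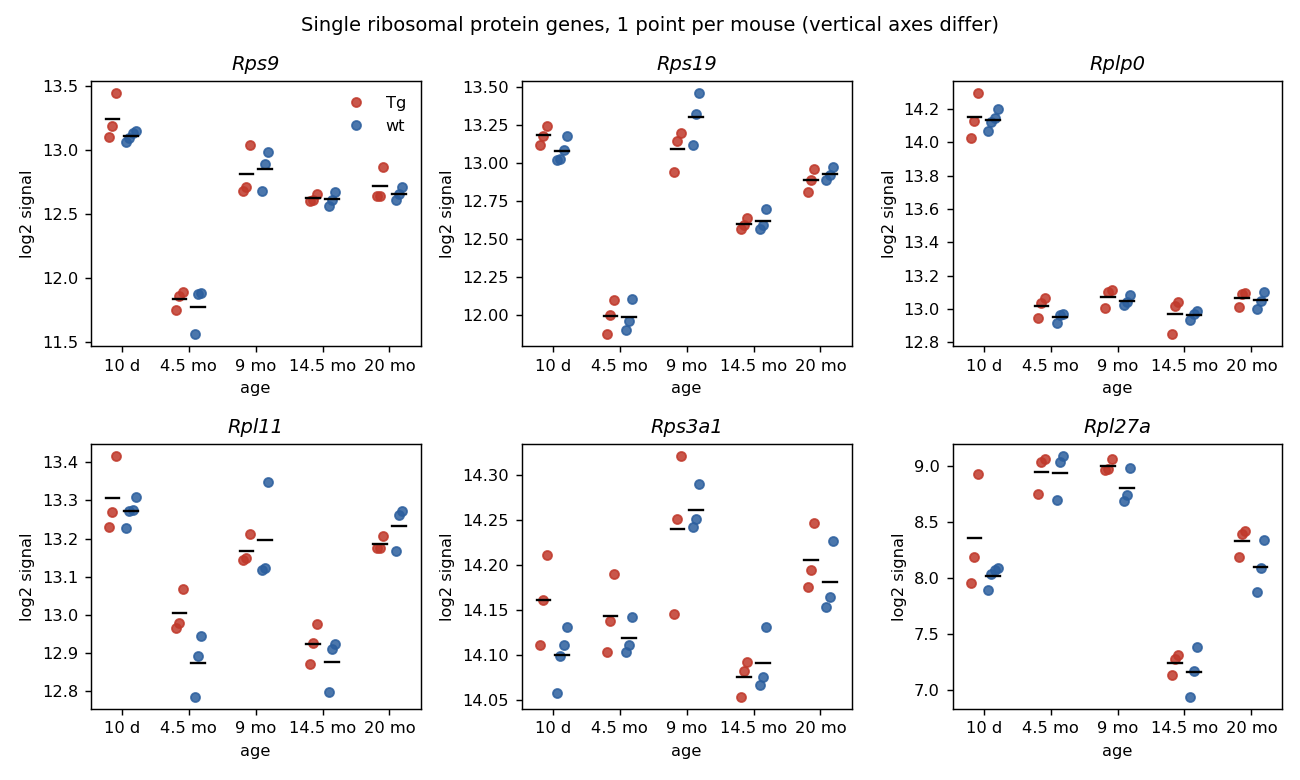
Log2 level of Rps9, Rps19, Rplp0, Rpl11, Rps3a1 and Rpl27a (1 panel each) by age, with 1 point per mouse, red for Tg and blue for wt, and a black bar at the mean of each group. Rplp0 stays low at all adult ages, Rps9 and Rps19 are lowest at 4.5 months, the Rps3a1 means of 10 days and 4.5 months differ by 0.00 and Rpl27a is lowest at 14.5 months.

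In a short list of genes near the entry to the ribosome's decoding centre, 1 of 3 measured genes fell and 0 rose from 10 days to 4.5 months on the brightest probe set. Rps9, given above as helping to keep decoding accurate, was not on this list and fell. Of all genes 35.5% fell and 31.2% rose, so the count for the listed genes was near that share. The listed gene that fell was Rps2, which lies where the message enters. Rps2 ran from 14.32 through 14.40 to 14.52 at 10 days, from 13.89 through 13.91 to 13.95 at 4.5 months, from 13.57 through 13.62 to 13.66 at 14.5 months and from 13.72 through 13.84 to 13.88 at 20 months. Every adult array of these ages lay below every 10 day array. The difference was -0.49 ± 0.03 (adjusted p = 1.79e-14) to 4.5 months and then -0.09 ± 0.03 (adjusted p = 0.0169) from 4.5 to 20 months. The other genes of this list, Rps3 and Rps15, differed by -0.02 ± 0.04 (adjusted p = 0.652) and -0.05 ± 0.03 (adjusted p = 0.206) on theirs. The further probe set of each fell, that of Rps3 by 0.83 ± 0.07 (adjusted p = 1.24e-11) and that of Rps15 by 0.20 ± 0.07 (adjusted p = 0.0232), and on the deposited signals the brightest ones fell as well, by 0.26 ± 0.06 and 0.28 ± 0.05 (adjusted p = 0.000113 and 9.62e-06).

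Along the exit tunnel, 2 of 4 measured genes fell and 0 rose, where 35.5% of all genes fell and 31.2% rose. Rpl35 fell by 0.77 ± 0.05 (adjusted p = 9.56e-15), and Rpl4, whose loop lines the tunnel, by 0.13 ± 0.03 (adjusted p = 0.000107). Rpl19 ran from 13.64 to 13.76 at 10 days and from 13.68 to 13.76 at 4.5 months, a difference of 0.01 ± 0.03 (adjusted p = 0.788). Rpl39, a dim probe set, gave -0.43 ± 0.22 (adjusted p = 0.0925).

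Rpl11, which with Rpl5 and the 5S RNA can bind the p53 regulator Mdm2 when ribosome assembly fails, ran from 13.23 through 13.27 to 13.42 at 10 days, from 12.78 through 12.96 to 13.07 at 4.5 months and from 13.17 through 13.19 to 13.27 at 20 months. The 4.5 month arrays lay below both other ages, which overlapped. It fell by 0.35 ± 0.04 (adjusted p = 1.15e-08) and rose by 0.27 ± 0.04 (adjusted p = 5.17e-06). Rps6, the small subunit protein that is phosphorylated downstream of mTOR, ran from 9.23 through 9.39 to 9.47 at 10 days, from 9.18 through 9.33 to 9.46 at 4.5 months and from 9.56 through 9.69 to 9.82 at 20 months. The 20 month arrays stood above those of both earlier ages. The difference was -0.03 ± 0.09 (adjusted p = 0.767) to 4.5 months and 0.36 ± 0.09 (adjusted p = 0.00217) from 4.5 to 20 months. A dimmer probe set of Rps6 fell by 0.95 ± 0.24 in the first interval (adjusted p = 0.000935) and gave -0.17 ± 0.24 in the second (adjusted p = 0.629).

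Of the paralogs, Rpl7l1, Rpl22l1 and Rps27l were measured, and all 3 fell from 10 days to 4.5 months. Rpl7l1, a relative of Rpl7, differed by -0.40 ± 0.08 (adjusted p = 4.74e-05) and Rpl7 itself by -0.32 ± 0.04 (adjusted p = 7.97e-09). Both then rose to 20 months, by 0.38 ± 0.08 (adjusted p = 0.00037) and 0.19 ± 0.04 (adjusted p = 0.000198). Rpl22 and its paralog Rpl22l1, whose splicing and level Rpl22 is known to restrain, both fell to 4.5 months and both rose from there to 9 months. Rpl22 ran from 12.97 to 13.07 at 10 days, from 12.53 through 12.70 to 12.76 at 4.5 months and from 12.73 through 12.88 to 12.90 at 9 months, and was below 10 days at every adult age. Rpl22l1 ran from 12.75 through 13.04 to 13.10, from 12.70 through 12.79 to 12.90 and from 13.01 through 13.18 to 13.25 at the same ages. At 9 months it was above its 10 day level by 0.18 ± 0.05 after quantile normalization. On the deposited signals it fell by 0.35 ± 0.06 to 4.5 months and rose by 0.52 ± 0.06 to 9 months. With median centring the fall of 0.70 ± 0.09 was larger than the rise of 0.43 ± 0.09, so its place against 10 days depended on the scaling. From 10 days to 4.5 months Rpl22 differed by -0.34 ± 0.03 (adjusted p = 7.09e-10) and Rpl22l1 by -0.17 ± 0.05 (adjusted p = 0.00687), and whether the 2 genes differed from each other was not tested. Rps27l, a target of p53, differed by -0.27 ± 0.09 (adjusted p = 0.00986), and its partner Rps27 by -0.87 ± 0.34 (adjusted p = 0.0278) on a dim probe set that ran from 6.62 to 8.79 at 4.5 months alone.

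Some genes were not called as falling after quantile normalization. Rps3a1, of the small subunit, ran from 14.06 through 14.11 to 14.21 at 10 days and from 14.10 through 14.12 to 14.19 at 4.5 months, a difference of 0.00 ± 0.03 (adjusted p = 0.983), and for the brightest probe set of Rpl37a the difference was 0.00 ± 0.04 (adjusted p = 0.997). The other 2 probe sets of Rpl37a fell, by 0.63 ± 0.05 (adjusted p = 9.3e-13) and 1.15 ± 0.31 (adjusted p = 0.0026). On the deposited signals Rps3a1, Rpl37a and Rpl19 differed by -0.16 ± 0.05, -0.20 ± 0.05 and -0.21 ± 0.04 (adjusted p = 0.0028, 0.00191 and 5.66e-05), and all 3 fell with median centring too. The 4 genes that rose were Rpl12 (above), Rpl27a, Rpl37 and Rps10. Rpl27a, of the large subunit, had a dim probe set that ran from 7.89 through 8.07 to 8.93 at 10 days, from 8.70 through 9.03 to 9.09 at 4.5 months, from 6.94 through 7.22 to 7.38 at 14.5 months and from 7.87 through 8.26 to 8.42 at 20 months. The 10 day and 4.5 month arrays overlapped, and those of 14.5 months lay below all others. The differences were 0.76 ± 0.12 (adjusted p = 3.86e-06) from 10 days to 4.5 months and -1.70 ± 0.13 (adjusted p = 9.75e-12) from 9 to 14.5 months. Rpl37 differed by 0.26 ± 0.11 (adjusted p = 0.0471) and Rps10 by 0.16 ± 0.05 (adjusted p = 0.00463), and with median centring both values were negative (-0.12 and -0.36).

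For the 21 genes with 2 or more probe sets, all of a gene's probe sets fell from 10 days to 4.5 months in 10, and in 2 genes probe sets passed the test in opposite directions. In Rps10 the brightest probe set rose, as above, while 3 others fell, by 0.20, 0.11 and 0.79 on the log2 scale, and a dim one rose by 1.19. In Rps24 all 4 bright probe sets fell, by 0.21 to 0.62, and a dim one rose by 0.51 (adjusted p = 0.0122). Over the single probe sets, 71 of 92 fell and 6 rose, with a median of -0.41, where 31.3% of all probe sets fell and 32.2% rose. Of the 92, 38 carry a name ending that marks probes shared with other transcripts (_x_at), and 31 of these fell (median -0.40), as did 23 of the 28 ending in _a_at (median -0.37), 3 of 3 ending in _s_at and 14 of the 23 with the plain ending _at (median -0.43). Near-identical pseudogenes of ribosomal proteins are common, so such probe sets may read several transcripts.

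The fall was present in both genotypes. In Tg mice 30 of the 46 fell and 1 rose from 10 days to 4.5 months (all genes: 27.5% and 25.7%), with a median of -0.30. In wt mice 30 fell and 4 rose (30.1% and 26.3%), with a median of -0.37. The same 27 genes fell in both. For 0 of 46 genes did the change differ between genotypes by limma, and 2 had an unadjusted p under 0.05. Of all genes 0 were called and 6.73% had such a p.

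Between adult ages the balance of ribosomal protein genes that rose and fell changed from step to step. From 4.5 to 9 months 25 rose and 3 fell (all genes: 20.6% and 24.3%), from 9 to 14.5 months 8 rose and 25 fell (26.3% and 21.9%), and from 14.5 to 20 months 20 rose and 5 fell (18.3% and 15.3%). The medians were 0.11, -0.15 and 0.13, against -0.03, 0.06 and 0.02 for all genes. Each age is shared by the steps on either side of it. On the deposited signals without quantile normalization the same steps gave medians of 0.37, -0.60 and 0.36, with 35, 4 and 36 genes rising and 1, 37 and 2 falling. Of all 12844 genes 2550, 3264 and 2147 rose and 2921, 2611 and 2188 fell on that scale, with medians of -0.02, 0.04 and 0.01. Most ribosomal protein genes are bright, and the bright end of the arrays moved in the same directions. The deposited signal exceeded by the brightest 1% had medians of 9486 at 4.5, 10979 at 9, 8431 at 14.5 and 10076 at 20 months. How far other genes of like brightness moved at these steps is not given, so a shift specific to ribosomal protein genes is not shown on that scale.

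The 8 genes called as rising from 9 to 14.5 months after quantile normalization were Rps27l, Rps29, Rps28, Rpl37, Rps4l, Rpl7l1, Rps10 and Rpl13a. For 4 of them, Rps27l, Rpl37, Rps4l and Rpl7l1, the rise was called on the deposited signals and with median centring too. The other 4, all with bright probe sets, fell under both of those scalings. Rps29, a short protein of the small subunit, had deposited signals of 38020 through 40100 to 42140 at 9 months and of 22630 through 23340 to 24130 at 14.5 months, a fall without overlap, while its quantile normalized levels rose by 0.30 ± 0.05 on the log2 scale (adjusted p = 1.17e-05). On the deposited signals its log2 difference was -0.77 ± 0.05 (adjusted p = 1.77e-13), so that its direction depended on the scaling, as did those of Rps28, Rps10 and Rpl13a. Rps27l rose by 0.63 ± 0.09 after quantile normalization (adjusted p = 1.83e-06) and by 0.68 ± 0.09 on the deposited signals (adjusted p = 4.46e-07). Rps3, which lies at the message's entry, ran from 13.54 through 13.62 to 13.79 at 9 months and from 13.19 through 13.21 to 13.30 at 14.5 months, without overlap. It differed by -0.41 ± 0.04 (adjusted p = 2.89e-09), and by -0.78 ± 0.06 on the deposited signals (adjusted p = 3.57e-12).

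From 4.5 to 20 months, 21 of the 46 rose and 4 fell (all genes: 22.4% and 19.9%), with a median of 0.14 against 0.03. All 20 month arrays lay above all 4.5 month arrays for 16 of the 46, compared with 11.8% of all genes, and below for 3, compared with 12.2%. The rise was seen in Tg (20 rose, 3 fell, with 12.1% and 12.7% of all genes) and in wt (18 rose, 1 fell, with 15.8% and 15.4%), and 16 genes rose in both. These values are measured against the 4.5 month arrays, which the Gapdh ratio set apart. Against 9 months the balance was another: from 9 to 20 months 8 genes rose and 12 fell (all genes: 21.7% and 17.9%), with a median of -0.04. Of the 33 genes that fell between 10 days and 4.5 months, 19 rose from 4.5 to 20 months, 11 did not pass and 3 fell further. The 33 were picked for low values on the same 4.5 month arrays, which favours a later rise, so these counts are no separate evidence of a return. The share of all genes with this course is not given. The 5 largest rises were those of Rps19, Rps9, Rpl27, Rplp2 and Rpl8, the last a large subunit protein near the catalytic centre, with 0.38 ± 0.05 (adjusted p = 7.04e-07).

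The 4 genes that fell from 4.5 to 20 months were Rpl27a, Rps26, Rpl41 and Rps2, and with median centring the values of Rps26, Rpl41 and Rps2 were above 0 (0.023, 0.075 and 0.11). Rpl27a differed by -0.73 ± 0.13 (adjusted p = 2.85e-05). Rps26, a small subunit protein at the message's exit, ran from 12.73 through 12.89 to 12.99 at 4.5 months, from 13.12 through 13.21 to 13.25 at 9 months and from 12.69 through 12.73 to 12.77 at 20 months. The 20 month arrays overlapped those of 4.5 months and lay below those of 9 months. The difference was -0.15 ± 0.04 (adjusted p = 0.00197) from 4.5 to 20 months and -0.47 ± 0.04 from 9 to 20 months. Rpl41, a very short protein that bridges both subunits, ran from 13.94 through 14.01 to 14.07 at 4.5 months and from 13.81 through 13.90 to 13.95 at 20 months, which overlap, and differed by -0.12 ± 0.04 (adjusted p = 0.0254). A further probe set of Rpl41 rose over the same interval, and Rpl13a and Rps10 likewise had probe sets that passed in opposite directions.

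**Figure D4:**
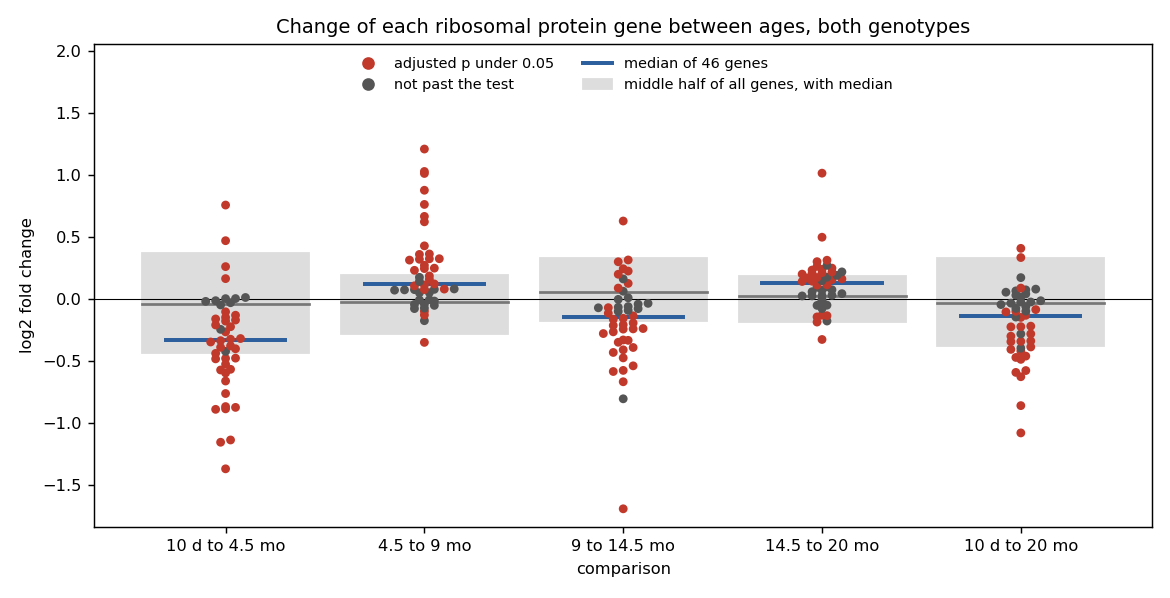
Log2 difference of each of the 46 ribosomal protein genes (1 point per gene, red where the adjusted p was under 0.05) for the intervals named on the horizontal axis, with a blue line at their median and a grey box over the middle 50% of all genes. The medians are -0.33, 0.11, -0.15, 0.13 and, from 10 days to 20 months, -0.14.

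Other lists of the protein synthesis machinery are set beside the 35.5% of all genes that fell and the 31.2% that rose from 10 days to 4.5 months. Of 69 genes of ribosome assembly 38 fell and 8 rose, with a median of -0.25, among them Eif6, which keeps new large subunits from joining (-0.93 ± 0.06, adjusted p = 5.02e-15), and Nip7 (-1.03 ± 0.07, adjusted p = 2.79e-13). Rpsa and Fau, ribosomal proteins with other symbols, both fell, by 0.87 ± 0.05 (adjusted p = 6.65e-16) and 0.66 ± 0.05 (adjusted p = 1.35e-13). Of 34 initiation factor genes 24 fell and 4 rose, for example Eif4a1, the helicase of the cap-binding complex (-0.63 ± 0.04, adjusted p = 1.3e-13). Of 14 genes of elongation and release 10 fell and 2 rose. The neuronal elongation factor Eef1a2, which replaces Eef1a1 as neurons mature, rose by 1.01 ± 0.04 (adjusted p = 3.54e-20), while Eef1a1 fell by 0.32 ± 0.04 (adjusted p = 4.63e-09). Of 18 RNA polymerase I genes 5 fell and 3 rose, smaller shares than those of all genes.

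Of 24 genes of growth control of translation 8 fell and 11 rose, and of 16 genes that handle stalled ribosomes and nascent chains 6 fell and 6 rose, with shares of falls near that of all genes. In the first list the 2 with the clearest change were Myc, a transcription factor that drives ribosome production (-2.28 ± 0.16, adjusted p = 1.97e-13), and its relative Mycl (-1.35 ± 0.11, adjusted p = 1.08e-11). In the second, Btf3, which binds nascent chains, differed by -1.03 ± 0.07 (adjusted p = 7.31e-14) and the GTP-binding protein Gtpbp1 by 0.53 ± 0.09 (adjusted p = 4.5e-06).

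Genes of the mitochondrial ribosome and of the proteasome, which degrades proteins, were lower at 4.5 months as well. Of 76 mitochondrial ribosomal protein genes 54 fell and 5 rose from 10 days to 4.5 months (median -0.40), and of 37 proteasome genes 30 fell and 1 rose (median -0.39). Over 4.5 to 20 months 44 and 25 of these rose and 5 and 3 fell (all genes: 22.4% and 19.9%). At each adult age 27 of the 76 and 17 of the 37 were below 10 days, as were 20.5% of all genes. Mrpl12 fell by 1.45 ± 0.07 (adjusted p = 2.1e-16) and Psmd13 by 1.22 ± 0.06 (adjusted p = 1.9e-16) between 10 days and 4.5 months.

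Markers of several cell types changed over the same interval, and in bulk tissue fewer cells of a type and less RNA per cell cannot be told apart. The summed deposited signal of 5 immature neuron markers ran from 43644 to 48941 at 10 days and from 6841 to 7658 at 4.5 months, and all 5 fell. The 4 measured markers of cycling cells ran from 4324 to 5227 and from 2191 to 2484, and all 4 fell. Those of oligodendrocytes ran from 3302 to 7984 and from 36732 to 46732, with 4 of 4 rising, and those of mature neurons from 45648 to 51076 and from 77106 to 92010, with 5 of 5 rising. No marker was listed at 0. Choroid plexus markers ran from 878 to 47700 among the 4.5 month arrays alone, and 0 of 7 passed the test by limma. Their part in the ribosomal protein levels was not tested.

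Between genotypes, no ribosomal protein gene passed the test at any age. The study lists Ribosome among the categories of a gene group that was lower in Tg than wt at 9 months. That group came from another test and another normalization over 9 to 20 months, and its ribosomal genes are not named there. The number called by limma was 0 of 46 at 10 days, 4.5, 9, 14.5 and 20 months, where 0.00779%, 0%, 2.99%, 0% and 0.0389% of all genes were called. An unadjusted p under 0.05 was reached by 7, 3, 6, 0 and 1 of the 46 at these ages, which is 15.2%, 6.52%, 13%, 0% and 2.17%, against 5.65%, 6.73%, 18.1%, 0.942% and 4.84% of all genes. At 10 days 38 of the 46 were higher in Tg with a median difference of 0.05, where the median of all genes was -0.01. At 9 months 8 were higher with a median of -0.06, where that of all genes was -0.05. The F test for a genotype effect that varies with age called 0 of 46, where 0.0623% of all genes were called. Only 2 of the 46 had an unadjusted p under 0.05, where 8.38% of all genes did. These were Rpl7l1 (adjusted p = 0.476) and Rps25 (adjusted p = 0.522).

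**Figure D5:**
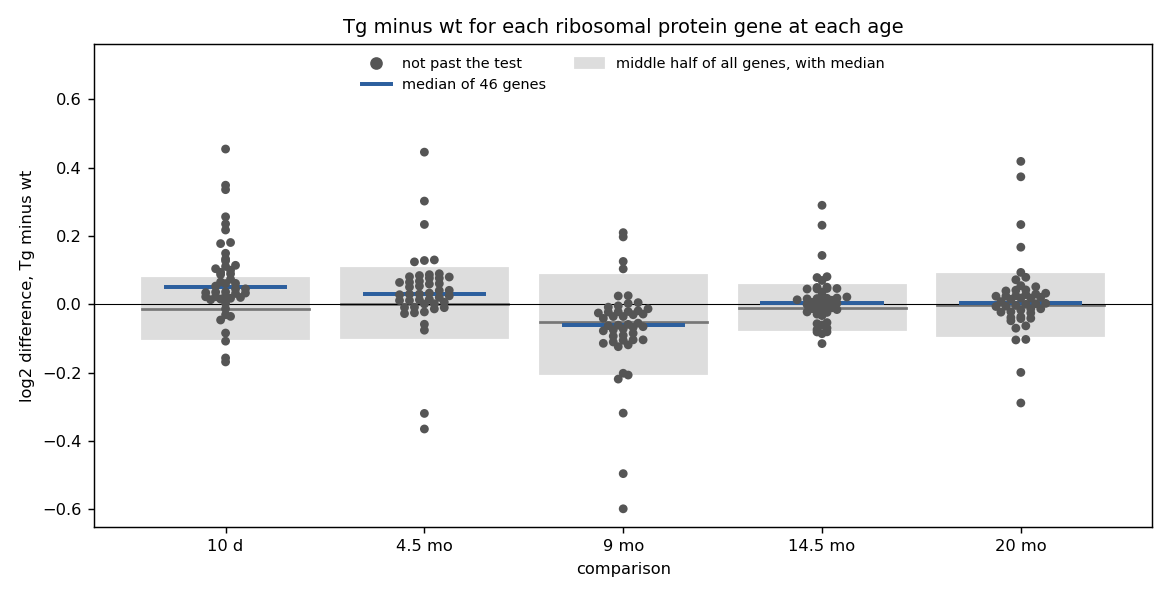
Log2 difference Tg minus wt of each of the 46 ribosomal protein genes (1 point per gene) at each of the 5 ages, with a blue line at their median and a grey box over the middle 50% of all genes. At 10 days 38 of the 46 points lie above 0 and at 9 months 38 lie below, and 0 of 46 passed the test at any age.

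The genes with the smallest p show how narrow the differences were. At 10 days Rps26 stood at 13.36, 13.47 and 13.48 in Tg and at 13.23, 13.26, 13.31 and 13.34 in wt. The groups did not overlap, with a difference of 0.15 ± 0.05 (adjusted p = 0.423). Rps20 stood at 13.70, 14.07 and 14.18 in Tg and at 13.67, 13.74, 13.81 and 13.84 in wt, so that 1 Tg mouse fell within the wt range, with a difference of 0.22 ± 0.08 (adjusted p = 0.513). In the other direction at that age, Rpl7l1 differed by -0.17 ± 0.11 (adjusted p = 0.813) and Rpl6 by -0.05 (adjusted p = 0.948).

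At 4.5 months Rpl7l1 stood at 9.39, 9.54 and 9.70 in Tg and at 8.93, 9.36 and 9.44 in wt, with an overlap and a difference of 0.30 ± 0.11 (adjusted p = 0.733). Rpl22 differed by 0.12 ± 0.05 (adjusted p = 0.759), Rps25 by -0.36 ± 0.19 (adjusted p = 0.859) and Rpl12 by -0.32 ± 0.21 (adjusted p = 0.927), the last resting on 1 mouse, since without Tg replicate 2 it was -0.0024.

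At 9 months Rps19 stood at 12.94, 13.14 and 13.20 in Tg and at 13.12, 13.32 and 13.46 in wt, with an overlap and a difference of -0.21 ± 0.08 (adjusted p = 0.125). Its binding protein Rps19bp1 stood at 8.93, 9.09 and 9.14 in Tg and at 9.27, 9.32 and 9.53 in wt, without overlap, a difference of -0.32 ± 0.12 (adjusted p = 0.122). Rpl4 stood at 14.11, 14.15 and 14.15 in Tg and at 14.01, 14.04 and 14.05 in wt, again without overlap, a difference of 0.10 ± 0.04 (adjusted p = 0.144). Rpl7l1 differed by 0.21 (adjusted p = 0.314). Over single probe sets, 1 of the 92 was called at 9 months, where 3.48% of all probe sets were. It was a further probe set of Rpl35, at -0.21 ± 0.06 (adjusted p = 0.0436).

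At the later ages the adjusted p was 1 for each gene named. At 14.5 months the differences were 0.08 for Rpl13a, 0.29 for Rpl37, -0.08 for Rpl6 and -0.06 for Rps10, and at 20 months they were 0.17 for Rpl22l1, 0.37 for Rps25, -0.29 for Rpl14 and -0.10 for Rps18. Single mice moved some of these, with Rps10 at -0.014 without wt 14.5 month replicate 2 and Rps18 at -0.015 without Tg 20 month replicate 3. With every Tg mouse set against every wt mouse, 7 of the 46 genes had all Tg arrays above all wt arrays at 4.5 months and 1 all below, where 5.48% and 5.22% of all genes did. At 9 months the counts were 1 above and 4 below, with 4.56% and 9.72% of all genes.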

How the data were processed

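Hippocampal total RNA of single mice was labelled as biotinylated cRNA and hybridised to Affymetrix Mouse Genome 430 2.0 arrays. Per the labels, the deposited values are MAS5 signal intensities, linear and without detection calls (45037 mouse probe sets). They were log2 transformed and quantile normalized, and probe sets above the array median on at least 3 arrays were kept (26877). R 4.3.3 and limma 3.58.1 fitted 10 group means (lmFit, eBayes with trend and robust settings). Benjamini-Hochberg adjustment was over all probe sets kept, and each of 12844 genes was then read on its brightest probe set. The scripts were checked on simulated data. The number of arrays limits the precision. The ribosomal protein genes and the lists were chosen with earlier results of these data known. Genes named were the 5 largest rises and falls from 10 days to 4.5 months and from 4.5 to 20 months with 1 sign in both genotypes, the 2 smallest p per direction for each genotype difference, the stalk, 5S and paralog genes, Rps6, genes whose probe sets opposed each other, and 1 to 3 genes per list by smallest p. Rpl35, Rpl19, Rpl37a, Rpl7a, Rps3a1, Rps3, Rps4l, Rps4x, Rps15, Rps28, Rps29 and Eef1a1, and the course of Rps20 with age, were named after their values were seen, as was the count over all adult ages. Alternatives were other scalings, filters, offsets, moderation, probe set choices, thresholds, a replicate block and leaving out each mouse. Probe sets listed for several genes were not used.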

Additional observations from a re-analysis of the deposited data

Results flagged for a closer look

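Among the 4 wt mice of 10 days, the only group large enough for such a check, 1 mouse stood apart from the other 3 in 4 of 31 genes tested, where the gap to the nearest mouse as a share of the group's whole range was over the critical value of Dixon's test. A ratio above that value occurs by chance in about 1 of 20 groups. Rpl13a had a ratio of 0.958, with replicate 1 at 14.25 and the others at 14.34. Rpl37 had 0.884, with replicate 3 at 10.11 and the others from 10.54 to 10.60. Rpl7l1 had 0.868, with replicate 1 at 9.84 and the others from 9.89 to 9.90. Rps6 had 0.837, with replicate 4 at 9.30 and the others from 9.44 to 9.47.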

How the results depend on the processing

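The fall from 10 days to 4.5 months kept its direction and a count within 1.5 times of 33 under every scaling, filter, moderation and probe set choice, and 32 to 34 genes fell when each mouse was left out in turn (3 to 4 rose). With a fold of 1.3 and an adjusted p of 0.01, 19 fell and 2 rose. The study set these limits for Tg against wt at single ages, with another test and another normalization. On the deposited signals without quantile normalization, and with median centring, 2 rose. With median centring the median of all genes was itself -0.30, and 6627 of all 12844 genes fell. Under that scaling 34 ribosomal protein genes were below 10 days at each adult age, and the share of all genes was not computed. Quantile normalization gave 20 (19 to 21 with a mouse left out).

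For 4.5 to 20 months, 20 to 21 rose and 3 to 5 fell with a mouse left out. Without quantile normalization, with eBayes without trend, or without _x_at and _s_at probe sets 2 fell, with median centring 1 fell, and with the fold threshold 4 rose and 1 fell. With 9 in place of 4.5 months, an alternative chosen after seeing the data, 8 rose and 12 fell, and the comparison with 10 days gave 26 that fell and 6 that rose.

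The adult steps ranged, with a mouse left out, over 21 to 26 rising and 1 to 3 falling from 4.5 to 9 months (1 without Tg 4.5 month replicate 1), 3 to 8 rising and 22 to 27 falling from 9 to 14.5 months (4 rose without Tg 9 month replicate 3, 5 without wt 9 month replicate 1, 3 without wt 14.5 month replicate 2), and 16 to 20 rising and 4 to 6 falling from 14.5 to 20 months. Without quantile normalization 1 fell from 4.5 to 9 months, 4 rose from 9 to 14.5 months, and 36 rose and 2 fell from 14.5 to 20 months. With the median over probe sets the counts were 1 fell, 5 rose and 3 fell for these steps, and with median centring 2 fell in the last.

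Signs turned for genes with small changes. Without quantile normalization Rps10 (-0.013) and Rps6 (0.035) turned from 10 days to 4.5 months and Rps2 (0.021) from 4.5 to 20 months. With median centring Rpl37 (-0.12) and Rps10 (-0.36) turned in the first interval, Rpl41 (0.075), Rps10 (0.074), Rps2 (0.11) and Rps26 (0.023) in the second, and Tg minus wt turned for Rpl4 at 9 months (-0.056) and Rpl13a at 14.5 months (-0.0034). With the median over probe sets Rps10 (-0.086) and Rpl41 (0.058) turned, as did Tg minus wt of Rpl13a (-0.0034) and Rps10 (0.070) at 14.5 and Rps18 (0.10) at 20 months. Without _x_at and _s_at probe sets Rpl41 (0.37) and Rps24 (0.51) turned in the first interval, Rps24 (-0.030) in the second and Rps18 (0.014) at 20 months. With 9 in place of 4.5 months, Rpl22l1 (0.18), Rpl37 (-0.094), Rpl39 (0.24), Rps19 (0.067), Rps24 (0.017), Rps27 (0.14) and Rps6 (0.14) turned against 10 days, and Rpl22 (-0.13), Rpl22l1 (-0.11), Rpl27 (-0.33), Rpl39 (-0.52), Rplp0 (-0.0032), Rplp2 (-0.21), Rps19 (-0.29), Rps27 (-0.54) and Rps9 (-0.14) against 20 months. The causes were not tested.

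For Tg minus wt, 0 to 2 genes were called at 10 days with a mouse left out (2, with Rps20 at an adjusted p of 0.0376, without Tg 10 day replicate 1), 0 to 1 at 9 months (Rps19, -0.30, adjusted p = 0.0263, without wt 9 month replicate 3) and 0 otherwise. Replicate numbers did not pair the mice (15 pairs, correlations from -0.112 to 0.0549), and with the replicate block 33 fell and 4 rose from 10 days to 4.5 months, and 21 rose and 4 fell to 20 months. Dim probe sets such as those of Rps27, Rpl39 and Rpl12 varied most, and signal over background limits them.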
